A study of Mus musculus with 12 samples.

Results

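The genes described here encode 9 nuclear receptors of liver metabolism, chosen by symbol from the table of exonic read counts: Ppara, Nr1i2, Nr1i3, Nr1h3, Nr1h4, Nr0b2, Nr5a2, Rxra and Esr1. Each matched 1 of the 38087 genes in the table, and all 9 passed the filter on low counts that left 14235 genes for testing. The livers came from germ-free male C57BL/6j mice, which carry no microorganisms, aged 13 to 16 weeks. The treated group was given subcutaneous recombinant human growth hormone (GH) at 50 µg per mouse, and the control group was given PBS. Injections were made 2 times a day, at ZT 2 and ZT 14 (hours after lights on), for 5 days, and every liver was taken at ZT 2. Ribosomal RNA-depleted total RNA was sequenced from 6 livers per group. Female mice and mice with a microbiota are not part of these data. Nothing in the labels says whether libraries of a group came from separate cages or litters, so a p-value here reflects only the scatter among the deposited libraries.

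Nuclear receptors are transcription factors, most of which are switched on by small lipophilic ligands such as fatty acids, bile acids, oxysterols, steroids or drugs. Many bind DNA at repeats of the motif AGGTCA, as partners of the retinoid X receptor RXRA. In the liver PPARA (Ppara) governs fatty acid oxidation, PXR (Nr1i2) and CAR (Nr1i3) drug metabolism, LXR alpha (Nr1h3) cholesterol efflux and lipid synthesis, and FXR (Nr1h4) the response to bile acids. SHP (Nr0b2) has no DNA-binding domain and represses other factors, LRH-1 (Nr5a2) sustains bile acid synthesis, and Esr1 encodes the oestrogen receptor alpha. Activity of these proteins depends on ligand as well as on amount, and only mRNA was measured here.

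The RefSeq table of promoters (GRCm38.p6, the mm10 assembly) gave 13 windows for all 9 genes, each of the 250 bases before an annotated start. These 3 windows are shown because Nr0b2 and Nr1h4 had the smallest p of the 9 in the GH comparison and because Nr1i3 shares a motif with Nr0b2. They are printed 5′ to 3′ in the direction of transcription, and capitals mark matches to CACGTG (the E-box), TTCNNNGAA (the core of STAT sites) or AGGTCA, on either strand.
Nr0b2, chr4:133553126-133553375, plus strand: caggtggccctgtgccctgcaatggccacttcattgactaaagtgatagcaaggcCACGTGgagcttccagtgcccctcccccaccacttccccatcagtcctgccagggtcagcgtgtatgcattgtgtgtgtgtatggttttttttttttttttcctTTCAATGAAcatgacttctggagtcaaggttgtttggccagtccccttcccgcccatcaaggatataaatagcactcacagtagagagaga
Nr1i3, chr1:171213720-171213969, plus strand: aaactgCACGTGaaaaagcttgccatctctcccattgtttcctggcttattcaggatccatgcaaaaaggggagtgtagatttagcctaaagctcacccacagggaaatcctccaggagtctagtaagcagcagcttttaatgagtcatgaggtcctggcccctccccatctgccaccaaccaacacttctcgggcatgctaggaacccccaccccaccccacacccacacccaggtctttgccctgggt
Nr1h4, chr10:89506659-89506908, minus strand: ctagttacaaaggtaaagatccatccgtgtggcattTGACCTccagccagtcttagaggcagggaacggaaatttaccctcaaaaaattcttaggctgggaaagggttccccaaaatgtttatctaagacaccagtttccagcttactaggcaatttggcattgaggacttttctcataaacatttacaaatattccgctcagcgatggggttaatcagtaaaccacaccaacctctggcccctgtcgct
The E-box stood at positions -195 to -190 of Nr0b2 and -244 to -239 of Nr1i3, where -1 is the base before the start. Of 32851 such windows over all genes 6.02% held an E-box. Nr0b2 also held a match to TTCNNNGAA at -91 to -83, a motif found in 7.02% of all windows, and a TATAAA at -28 to -23 (12.4%). In Nr1h4 the AGGTCA motif lay on the opposite strand at -214 to -209. This motif was in 14.0% of all windows and also in 1 of the Nr5a2 windows and 1 of the Rxra windows. TTCNNNGAA occurred in 1 of the Esr1 windows as well. No window of the 9 genes held the direct repeats AGGTCANAGGTCA (0.0335% of all windows) and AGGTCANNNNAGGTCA (0.0152%) or the inverted repeat AGGTCANTGACCT (0.00609%). Repeats this rare are missing from nearly every window, so their absence here says little. The D-box TTANGTAA, which factors of the DBP and TEF family bind, was also missing, and it was in 2.06% of all windows. The Ppara window matched none of these motifs and had a GC content of 76.4%, against a median of 52.4% over all windows. A match is a run of letters, not a bound site.

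Library totals ran from 19523104 to 23278931 counts. The labels were checked on 8 genes of the GH response, of which 6 were called lower in the libraries labelled GH and 0 higher. Socs2, Cish, Igf1 and Igfals are known as genes that GH induces, and for these the check went against the known direction. No direction is given here for the other genes. Socs2 was at 4.66 to 25.8 CPM (read counts scaled to the library size) in the libraries labelled PBS and at 1.05 to 1.85 in those labelled GH (log2 fold change -3.37 ± 0.40; SE, n = 6; adjusted p = 0.00084). Igf1 was at 401 to 541 and at 227 to 398 CPM (-0.67 ± 0.12; adjusted p = 0.00381). Cish, Igfals, Prlr and Onecut1 were also lower without overlap, and Ghr (0.23, adjusted p = 0.134) and Stat5b (0.01, adjusted p = 0.976) were not called. The human hormone's own RNA is not a measure here, so nothing in these values settles whether the 2 labels are as applied, and exchanged labels would turn the sign of every difference below. "GH" and "PBS" therefore mean the libraries so labelled throughout. GH replicate 6 and PBS replicate 5 stood apart from their groups: their root mean square deviation from the group mean was 0.303 and 0.308 on the log2 scale over 7544 genes, against 0.144 to 0.238 in the other libraries. Hepatocyte markers were abundant in every library, with a summed level of 75138 to 111583 CPM over 6 genes. The sums of 6 Kupffer cell, 6 sinusoidal endothelium and 5 cholangiocyte markers overlapped between the groups, and none of these genes passed the test, nor did any hepatocyte marker. Among 6 markers of stellate cells and fibroblasts 1 was lower in the libraries labelled GH (Dcn), among 7 pericentral markers 1 was higher (Cyp1a2) and among 7 periportal markers 1 was higher (Cyp2f2). All 6 lymphocyte markers lay below the filter. In bulk tissue, fewer cells of a type and less RNA per cell cannot be told apart.

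Relative to gene length, most of the 9 receptors were among the abundant nuclear receptors of these livers. Of the 49 nuclear receptor genes of the mouse 38 passed the filter, and 7 of the 9 took ranks 2 to 6, 8 and 9 in the libraries labelled PBS by CPM per kb of exon. Only Hnf4a, the hepatocyte receptor HNF4A that is not among the 9, was above Rxra, with 115 against 52.3 CPM per kb. Levels of the 9 in PBS fell in the order Rxra (52.3 ± 7.08 CPM per kb; SD, n = 6), Nr1h4 (38.8), Nr1i3 (33.9), Nr1h3 (31.2), Nr0b2 (29.4), Ppara (25.9), Nr1i2 (23.2), Nr5a2 (13.0) and Esr1 (1.64 ± 0.888). The ranges of neighbours overlapped all the way down to Nr1i2. Nr1i2 against Nr5a2, and Nr5a2 against Esr1, did not overlap. In the libraries labelled GH Nr0b2 stood first at 50.2 ± 15.0 CPM per kb, overlapping Rxra at 48.9 ± 5.08, and the last 3 places were unchanged. Lengths are summed over all annotated exons of a gene, 13661 bases for Esr1, so a gene that uses short transcripts is understated.

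The mRNA of these receptors was compared between libraries labelled GH and PBS in 1 fit over all genes, and every direction follows those labels. None of the 9 passed edgeR's quasi-likelihood test at a Benjamini-Hochberg adjusted p under 0.05, and none passed in DESeq2, against 4.79% of all genes tested in edgeR (2.27% higher and 2.52% lower in GH). Unadjusted p was under 0.05 for 2 of the 9, Nr1h4 and Nr0b2, against 19.0% of all genes. In none of the 9 did the 6 GH and 6 PBS values lie apart (3.18% of all genes). The median log2 fold change of the 9 was -0.02, and that of all genes 0.00.

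**Figure D1:**
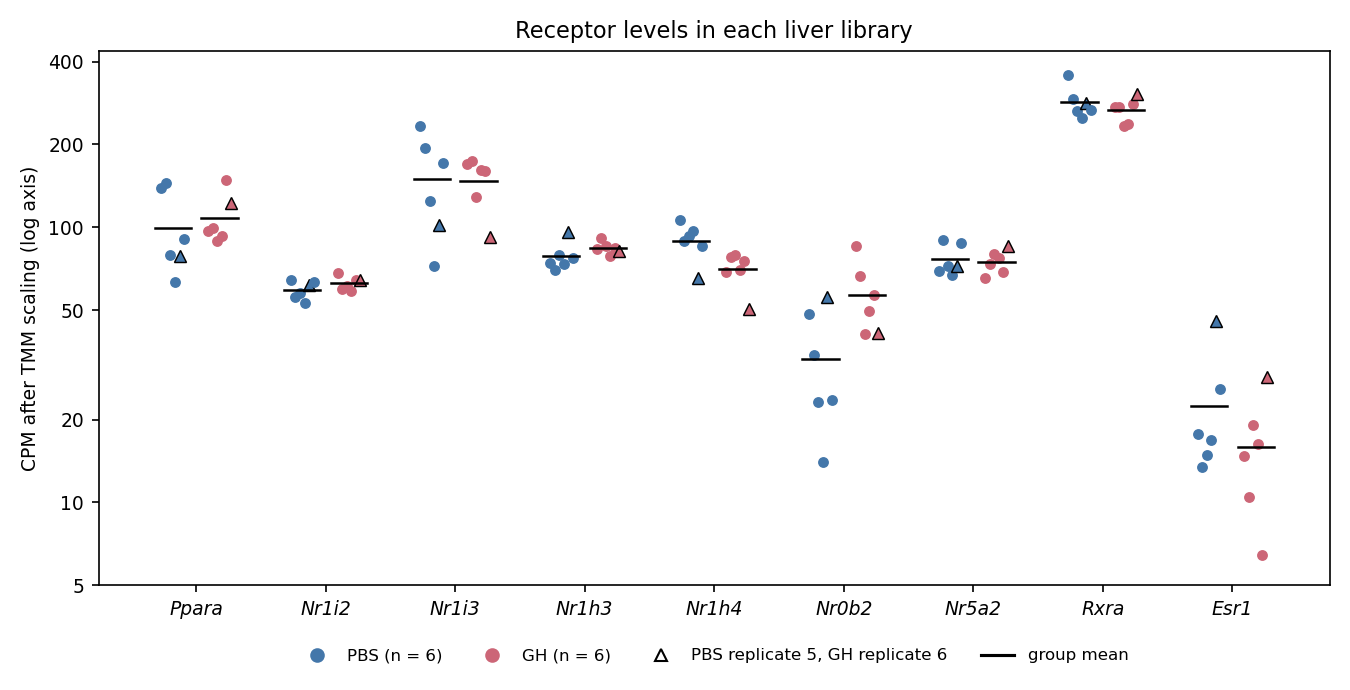
CPM after TMM scaling (log axis) of the 9 receptors in each of the 12 libraries; circles are libraries, triangles are PBS replicate 5 and GH replicate 6, and bars are group means. The groups overlap for every gene, Nr0b2 has its 4 lowest values among the libraries labelled PBS, and both triangles lie at the bottom of their groups for Nr1h4 and at the top for Esr1.

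The lipid-sensing receptors differed from each other mainly in the spread of their values between livers. Ppara (chromosome 15, 85734983 to 85802819) ran from 63.3 through a median of 85.1 to 145 CPM in PBS and from 89.4 through 98.5 to 148 in GH. The PBS values split, with 4 libraries at 90.7 CPM or less and 2 at 138 and 145, above 5 of the 6 GH libraries, and the log2 fold change was 0.13 ± 0.22 (SE, n = 6; adjusted p = 0.814 in edgeR). Its 95% interval allowed anything from 0.786-fold to 1.51-fold. Nr1h3 (chromosome 2, 91184061 to 91202834), by contrast, was tight, at 70.0 to 96.0 CPM (median 75.7) in PBS and 78.8 to 91.3 (median 84.0) in GH. Its log2 fold change was 0.10 ± 0.07 (adjusted p = 0.490), with an interval of 0.964-fold to 1.197-fold. Nr1h3 shares 34 exonic bases with Gm13783 on the same strand.

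Of the drug-sensing pair, Nr1i2 varied little between livers of a group and Nr1i3 widely. Nr1i2 (chromosome 16, 38248323 to 38294824) lay between 53.3 and 64.1 CPM (median 59.6) in PBS and between 58.9 and 68.1 (median 62.7) in GH. The log2 fold change of 0.08 ± 0.06 (adjusted p = 0.526) had an interval of 0.965-fold to 1.16-fold. Nr1i3 (chromosome 1, 171213970 to 171220701) spanned 72.4 to 234 CPM (median 148) in PBS and 91.9 to 174 (median 161) in GH. The lowest and the highest of the 12 libraries were both PBS, and the group means of 150 and 148 CPM nearly coincided. Its log2 fold change was -0.02 ± 0.27 (adjusted p = 0.982), and the interval of 0.651-fold to 1.498-fold leaves room for a change of that size in either direction.

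Among the bile acid regulators, Nr1h4 and Nr0b2 had the smallest p of the 9 and opposite signs, Nr1h4 lower and Nr0b2 higher in the libraries labelled GH. Nr1h4 (FXR; chromosome 10, 89454234 to 89533585) ran from 65.3 through a median of 91.3 to 106 CPM in PBS and from 50.6 through 72.6 to 79.0 in GH. The overlap came from PBS replicate 5 alone, since the other 5 PBS libraries were at 85.3 CPM or more, above every GH library. The log2 fold change was -0.35 ± 0.12 (SE, n = 6; unadjusted p = 0.00972, adjusted p = 0.113), with an unadjusted 95% interval of 0.661-fold to 0.935-fold. Without PBS replicate 5 it was -0.43 and passed (adjusted p = 0.0202), as it did without PBS replicate 5 and GH replicate 6 together (-0.35, adjusted p = 0.00699, when 7.18% of all genes were called). Without PBS replicates 1 and 2 and GH replicates 5 and 6 it was -0.20 (adjusted p = 0.327). With all 12 libraries adjusted p was 0.0735 in DESeq2. In edgeR it was 0.0583 with scaling by library totals, 0.152 with the replicate block and 0.161 without the low-count filter.

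Nr0b2 (SHP; chromosome 4, 133553376 to 133556536) ran from 14.0 through a median of 28.9 to 56.0 CPM in PBS and from 41.0 through 53.4 to 85.5 in GH. Of the PBS libraries 4 lay below every GH library, while PBS replicates 1 and 5 lay among the GH values. The log2 fold change was the largest of the 9 in size, 0.77 ± 0.33 (unadjusted p = 0.0415, adjusted p = 0.240), with an unadjusted interval of 1.03-fold to 2.84-fold. It stayed short of the threshold without PBS replicate 5 (0.98, adjusted p = 0.116) and without that library and GH replicate 6 (1.06, adjusted p = 0.111). Over 19 alternative fits its adjusted p ran from 0.0687 (edgeR with the replicate block, 0.87 ± 0.20) to 0.401 (edgeR without the low-count filter). Nr5a2 (LRH-1; chromosome 1, 136842571 to 136960448) showed 67.0 to 89.9 CPM (median 72.6) in PBS and 65.5 to 85.6 (median 75.2) in GH. The groups covered the same span, and the log2 fold change was -0.03 ± 0.09 (adjusted p = 0.909; interval 0.863-fold to 1.12-fold).

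The shared partner Rxra (chromosome 2, 27676440 to 27762957) ran from 250 through 275 to 358 CPM in PBS and from 232 through 273 to 306 in GH. The medians nearly matched, and the log2 fold change was -0.10 ± 0.09 (adjusted p = 0.630; interval 0.815-fold to 1.07-fold). Esr1 (chromosome 10, 4611593 to 5005614), the least abundant of the 9, ran from 13.5 through 17.3 to 45.6 CPM in PBS and from 6.44 through 15.6 to 28.6 in GH. PBS replicate 5 and GH replicate 6 were the highest library of their groups, at 45.6 and 28.6 CPM. The log2 fold change was -0.49 ± 0.40 (adjusted p = 0.563; interval 0.388-fold to 1.31-fold), or -0.16 without PBS replicate 5.

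**Figure D2:**
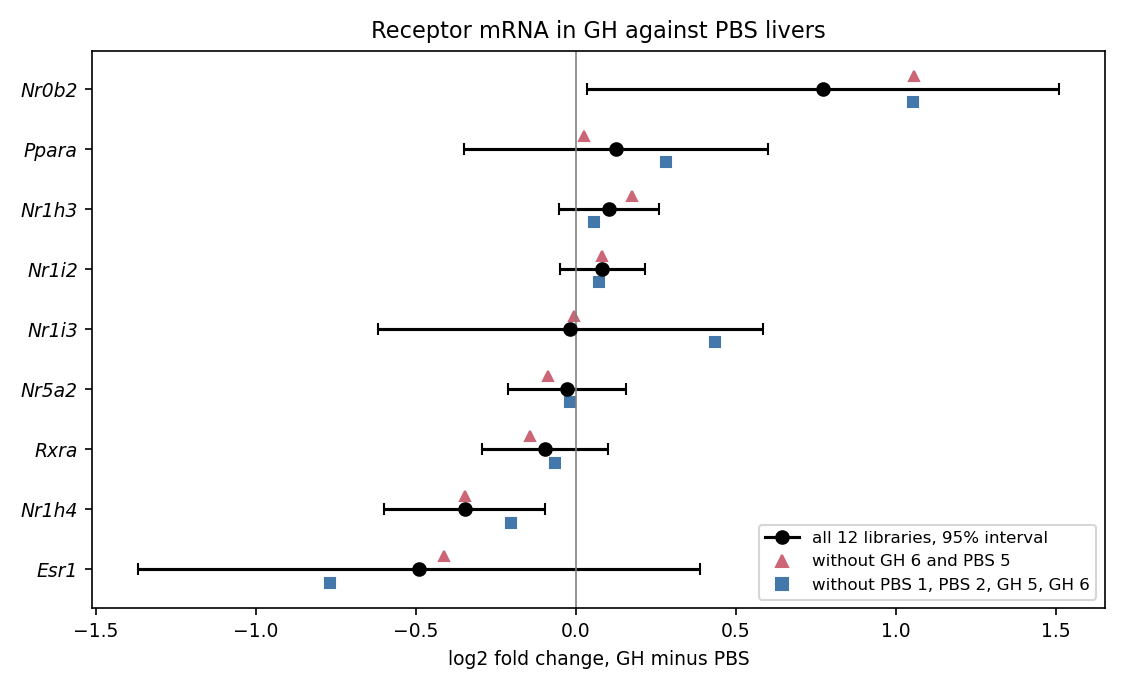
Log2 fold change of GH against PBS for the 9 receptors, with the 95% interval of the edgeR fit over all 12 libraries (circles), without GH replicate 6 and PBS replicate 5 (triangles) and without PBS replicates 1 and 2 and GH replicates 5 and 6 (squares). The intervals of Nr0b2 and Nr1h4 lie to one side of 0 before adjustment over all genes, those of Nr1i2, Nr1h3, Nr5a2 and Rxra are narrow, and those of Ppara, Nr1i3 and Esr1 are wide.

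The spread within a group thus separated the 9 into 2 kinds. In PBS the coefficient of variation was 54.2% for Esr1, 48.7% for Nr0b2, 40.6% for Nr1i3 and 34.5% for Ppara. For the other 5 it was 7.23% (Nr1i2) to 15.5% (Nr1h4), and the median of 7544 genes with a mean of at least 10 CPM was 10.9%. In GH the same 4 genes were again the most variable, at 47.9%, 29.97%, 21.3% and 21.01%, against a median of 8.91%. These are descriptions of 6 libraries each, without a test.

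The 4 libraries with the highest Ppara, PBS replicates 1 and 2 and GH replicates 5 and 6, also had the highest Dbp and Tef. Dbp and Tef encode D-box binding factors driven by the circadian clock. Dbp stood at 32.2, 22.3, 20.96 and 8.61 CPM in these 4 libraries and at 0.604 to 2.46 CPM in the other 8. Tef stood at 106, 89.0, 105 and 83.9 CPM in them and at 28.0 to 61.2 in the others, while Npas2, a clock gene of the opposite phase, was at 1.602, 2.49 and 2.70 CPM in the first 3 and at 4.57 to 8.53 elsewhere, GH replicate 6 included. Dbp, Tef and Npas2 were singled out after their values were seen. All livers are labelled ZT 2, and both groups held 2 of the 4 libraries.

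Over all 12 libraries 153 relations of a receptor with a clock gene were computed, group means removed. After adjustment 1 passed for Pearson's r, Ppara with Bhlhe41 (adjusted permutation p = 0.0413; 0.126 for rho), and 1 for Spearman's rho, Ppara with Tef (adjusted permutation p = 0.0214; 0.0535 for r). These values span the 2 clusters of libraries, so no pooled coefficient is given. Within the 8 others the Pearson correlation of Ppara with Tef after removing group means was 0.21 (two-sided exact permutation p = 0.569). When values were ranked over these 8 libraries first and group means of the ranks then removed, it was 0.68 (exact permutation p = 0.132). That differs from the rho over 12 libraries, which ranked the deviations from group means. For Pearson's r none of 17 clock genes passed within the 8 (lowest adjusted exact permutation p = 0.738). In the comparison of GH with PBS 0 of 17 clock genes passed in edgeR, 0 in DESeq2 and 0 had an unadjusted p under 0.05. Over all genes 4.79% passed in edgeR and 19.0% had an unadjusted p under 0.05, so 0 calls in a list of 17 say little. Clock and Per1 had the smallest p (log2 fold change 0.13 and -0.33, adjusted p = 0.294 and 0.346). Without the 4 libraries the log2 difference was 0.28 ± 0.10 for Ppara (SE, n = 4; adjusted p = 0.107 in edgeR) and, for Nr1i3, 0.43 ± 0.25 (adjusted p = 0.399), a fit chosen after seeing the data. The libraries left out were the highest in Ppara in each group. Leaving them out narrows the spread of Ppara by selection, so its SE and adjusted p in this fit cannot be taken at face value.

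**Figure D3:**
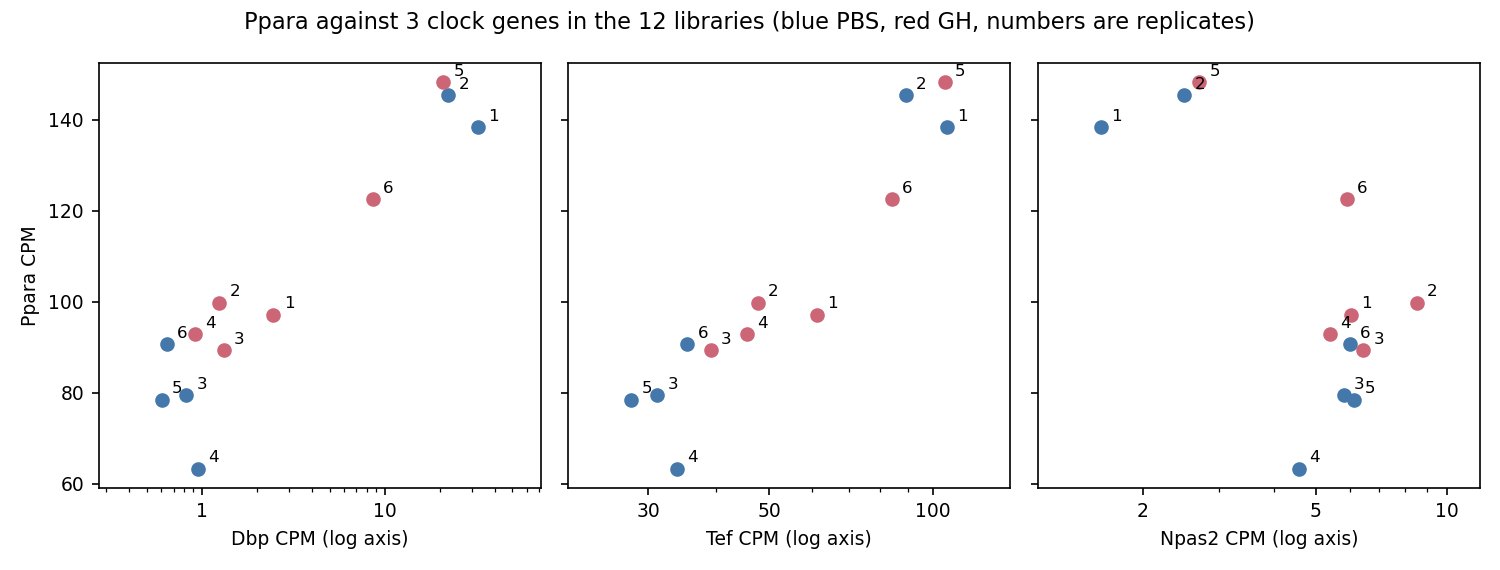
Ppara CPM (linear axis) against CPM of Dbp, Tef and Npas2 (log axes) in the 12 libraries, blue for PBS and red for GH, with replicate numbers. PBS replicates 1 and 2 and GH replicates 5 and 6 stand at 123 CPM of Ppara or more and at 8.61 CPM of Dbp or more, and the other 8 below 100 CPM of Ppara and at 2.46 CPM of Dbp or less.

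The deviations of the 9 from their group means were compared in 36 pairs over the 12 libraries. By permutation within groups 0 of the 36 passed for Pearson's r after adjustment and 1 for Spearman's rho, Ppara with Rxra. For that pair rho was 0.80 (adjusted permutation p = 0.0439) and r 0.76 (adjusted permutation p = 0.181), or r = 0.73 without the 2 libraries farthest from the median of Ppara, and these values too span the clusters of Ppara. Rxra was at 358, 292, 281 and 306 CPM in the 4 libraries of high Ppara and at 232 to 284 CPM in the other 8, which overlap. For Nr1h4 and Esr1 the values were r = -0.745 (adjusted permutation p = 0.192) and rho = -0.50 (adjusted permutation p = 0.631). That relation rests on GH replicate 6 and PBS replicate 5, without which r was -0.20. The same 2 libraries had the highest summed level of 7 periportal markers in their groups, 9102 and 10115 CPM against up to 8632 and 8104 in the others. Their sums of 7 pericentral markers were 6471 and 5138 CPM, in ranges of 6348 to 7950 for GH and 5138 to 10116 for PBS. Most of each sum is Cyp2e1 (3304 to 8044 CPM), so it says little of the other markers. Glul was at 391 and 474 CPM in these libraries, against 807 to 979 and 797 to 925 in the others of their groups. Cyp1a2 and Rhbg were also lowest of their groups there, and Oat was highest, at 1203 and 1061 CPM. The part of lobule position in these receptor values was not tested.

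**Figure D4:**
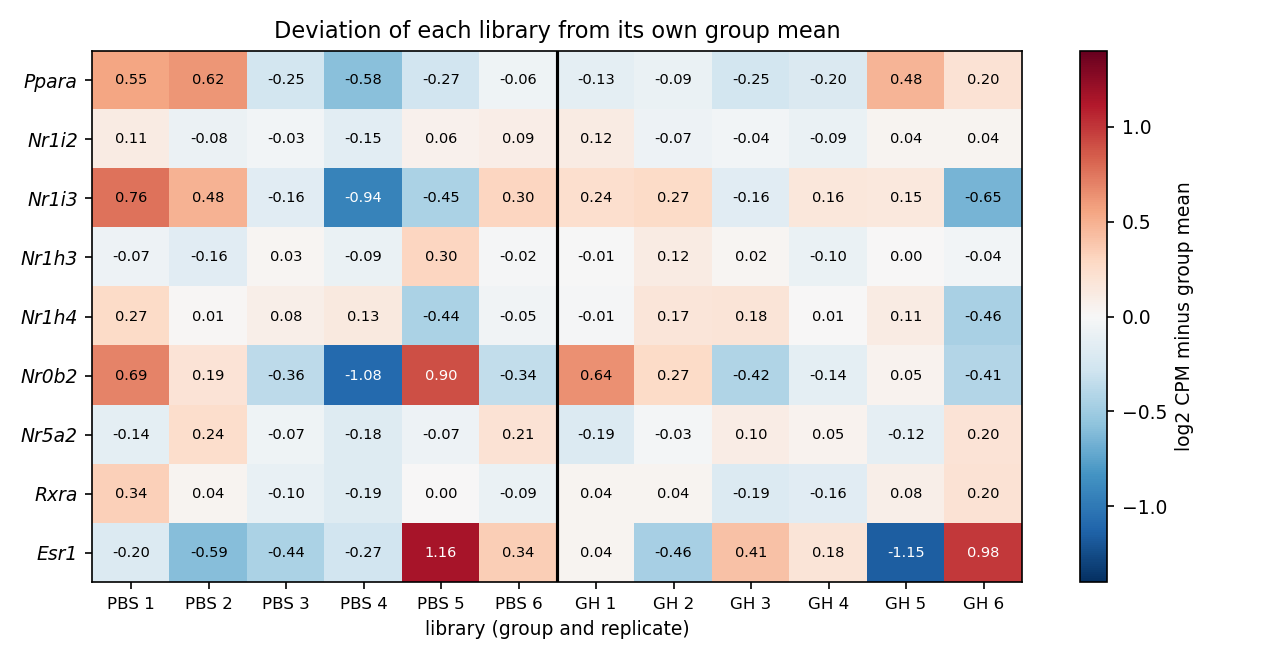
Deviation of each library from the mean of its own group, in log2 CPM, for the 9 receptors (rows) and 12 libraries (columns). Ppara is above its group mean in PBS 1, PBS 2, GH 5 and GH 6, Nr1h4 is lowest and Esr1 is high in PBS 5 and GH 6, and Nr1i2 varies little.

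Genes that the literature places under these receptors were followed as lists, beside the receptors themselves. The lists were chosen with earlier results of these data known, so their counts beside all genes are descriptions only. Of 15 CAR targets 7 were lower in the libraries labelled GH and none higher, against 2.52% of all genes called lower, and all 15 had a log2 fold change below 0 (7098 of 14235 genes overall). The list median was -0.61. Gstt1, a glutathione transferase, ran from 131 to 185 CPM in PBS and from 73.7 to 82.1 in GH, without overlap (log2 fold change -0.99 ± 0.09; SE, n = 6; adjusted p = 1.23e-05 in edgeR). The cytochrome P450 genes Cyp2c29, Cyp2c37 and Cyp2c54 changed by -1.20, -1.37 and -0.96, the stress-response gene Gadd45b by -1.83 and the retinal dehydrogenase-like gene Aldh1a7 by -0.34. Aldh1a1 was the other target called. Gadd45b was low, at 0.55 to 4.18 CPM in PBS and 0.30 to 0.63 in GH, which overlap. Cyp2b10 was among the 8 targets not called, at 0.33 to 20.5 CPM in PBS and 1.12 to 3.67 in GH (adjusted p = 0.140 in DESeq2). The Nr1i3 means in the same livers were 150 and 148 CPM. Sums of the 7 pericentral markers, from the zone where several Cyp2c genes are strongest, averaged 7485 CPM in PBS and 7297 in GH and overlapped. Cyp2e1 makes up most of these sums, and the part of these markers in the result was not tested. The count was 9 without GH replicate 6 and PBS replicate 5, 4 without PBS replicate 6 or GH replicate 5, and 3 without GH replicate 2. Cyp2c and Aldh1a genes have close paralogs among which reads may be split, and Cyp2c29 overlaps Cyp2c53-ps.

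Of 15 PXR targets 4 were lower in the libraries labelled GH and none higher, with a median of -0.37, beside 2.52% of all genes called lower. Alas1, the first enzyme of haem synthesis, went from 48.4 to 293 CPM in PBS to 25.3 to 53.9 in GH (log2 fold change -1.93 ± 0.39; adjusted p = 0.0202), and only PBS replicate 2 lay among the GH values. Por, the reductase that supplies P450 enzymes with electrons, ran from 77.9 to 162 CPM in PBS and from 24.8 to 84.0 in GH (-1.398 ± 0.29; adjusted p = 0.0216), with GH replicate 6 the highest of the GH libraries. Gstm1 changed by -0.37 and Aldh1a1, also a CAR target, by -0.61. Cyp3a11 was among the 11 targets not called, at 12.1 to 184 CPM in PBS and 18.1 to 139 in GH (adjusted p = 0.869 in DESeq2). Aldh1a1, Ugt1a1 and Cyp2c55 stand on both lists, which are therefore not independent. The count of 4 became 5 without GH replicate 6 and PBS replicate 5. It was 2 without PBS replicate 1, 2 or 6 or GH replicate 1 or 4, 1 without GH replicate 2 or 5, and 0 without GH replicate 3.

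Of 27 PPARA targets 8 were lower in the libraries labelled GH and none higher, beside 2.52% of all genes called lower. The list median was -0.27, and 21 of the 27 were below 0 (7098 of 14235 genes overall). Acaa1b, a peroxisomal thiolase, ran from 218 to 355 CPM in PBS and from 149 to 200.5 in GH, without overlap (log2 fold change -0.68 ± 0.11; adjusted p = 0.00232). Ehhadh, another enzyme of peroxisomal oxidation, and Acsl1, which activates long-chain fatty acids, changed by -0.53 and -0.47. The thioesterase genes Acot1 and Acot2 changed by -1.21 and -0.87 and the fatty acid hydroxylase gene Cyp4a14 by -5.07. Cyp4a14 ran from 10.3 to 433 CPM in PBS and from 1.28 to 10.1 in GH. Its 2 highest values, 433 and 338 CPM, came from PBS replicates 1 and 6. Acot2 was low, at 0.75 to 2.99 CPM. Vnn1 and Cyp4a32 completed the 8 called targets. Of 12 fits that each dropped a library, Acot1 passed in 8, Cyp4a14 in 7, Acot2 in 6, Vnn1 in 5 and Cyp4a32 in 3. Acaa1b, Ehhadh and Acsl1 passed in all 12. The Ppara means were 99.3 and 108 CPM. The count was 9 without GH replicate 6 and PBS replicate 5, 5 without GH replicate 1, 4 without PBS replicate 6 or GH replicate 5, and 3 without GH replicate 2, 3 or 4. Acot and Cyp4a genes also have close paralogs.

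**Figure D5:**
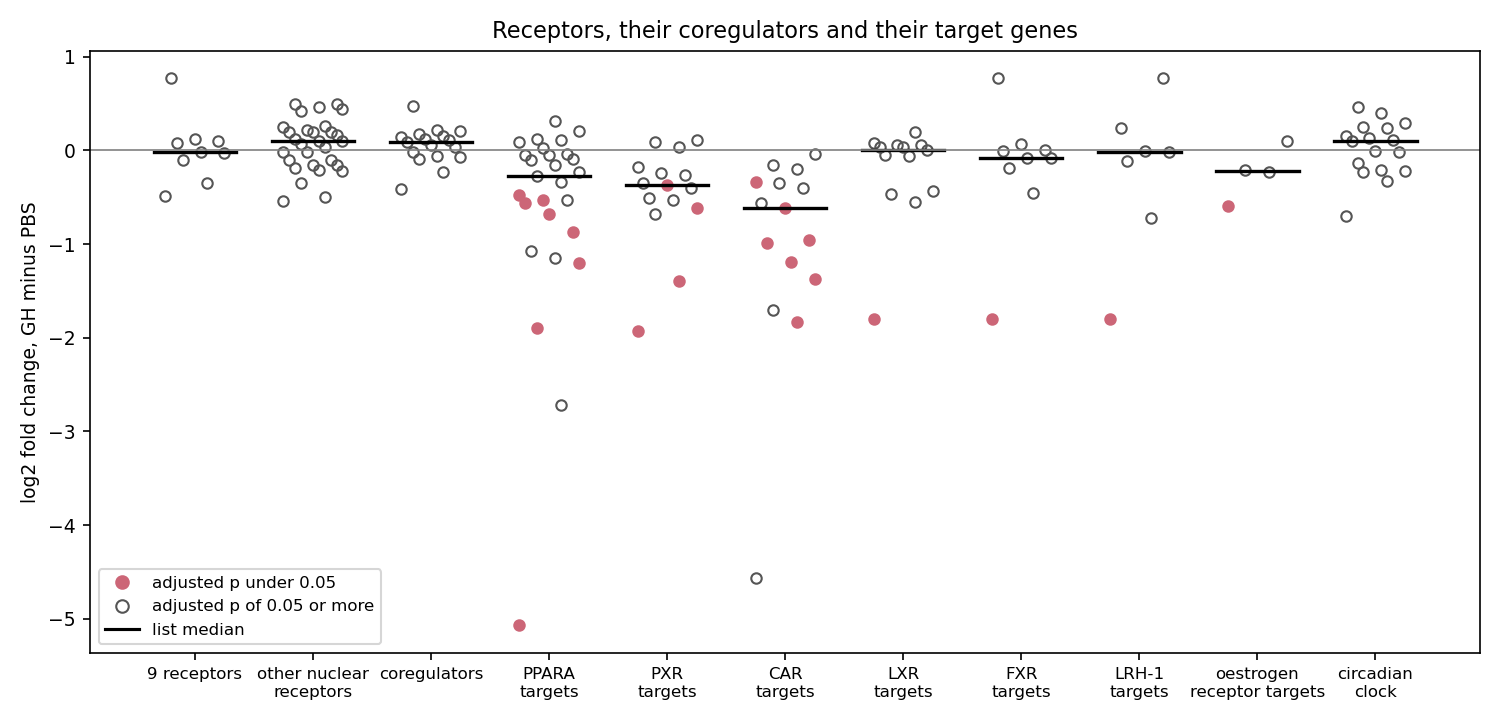
Log2 fold change of GH against PBS of every tested gene on 11 lists; filled points have an adjusted p under 0.05 and bars are list medians. The 9 receptors, the other nuclear receptors, the coregulators and the clock genes have no filled point, and every filled point of the target lists lies below 0.

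Among targets of the bile acid and sterol receptors 1 gene was called, lower in the libraries labelled GH, beside 2.52% of all genes called lower. Cyp7a1, the rate-limiting enzyme of bile acid synthesis, stands on the lists of LXR, FXR and LRH-1 and was the only member called on each. It ran from 13.9 to 46.9 CPM in PBS and from 2.56 to 12.7 in GH, without overlap (log2 fold change -1.80 ± 0.44; adjusted p = 0.0446), but of 12 fits that each dropped a library it passed in 2, those without PBS replicate 1 or 2, and its adjusted p reached 0.101 among the rest. SHP, the product of Nr0b2, is known as a repressor of Cyp7a1, and FXR as an inducer of Nr0b2. The other 12 LXR targets had adjusted p of 0.371 or more (Acaca, a lipogenic enzyme, -0.46). Of the FXR targets, Slc10a1, the bile acid uptake transporter, was next (-0.46, adjusted p = 0.169), and of the LRH-1 targets Plk3, a polo-like kinase (-0.72, adjusted p = 0.0515; adjusted p = 0.00301 in DESeq2). List medians were 0.01, -0.08 and -0.01. Nr0b2, itself 1 of the 9 receptors, stands on the FXR and LRH-1 lists and enters their medians. The FXR list holds both Nr0b2, which FXR induces, and Cyp7a1, which SHP represses. Its median therefore has no single direction to be read as FXR activity.

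Xbp1, a transcription factor of the unfolded protein response, was the 1 of 4 tested oestrogen receptor targets that was called, lower in the libraries labelled GH (-0.60 ± 0.14, adjusted p = 0.0245, beside 2.52% of all genes called lower). Its call was lost (adjusted p up to 0.0582) without PBS replicate 2 or 4 or any 1 of GH replicates 1 to 4. Nrip1, a corepressor, was next at -0.23 (adjusted p = 0.297). The standard targets Greb1 and Pgr did not pass the filter, with 40 and 5 counts over all 12 libraries.

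Of the other 40 nuclear receptors 29 were tested and 0 passed in edgeR (2 in DESeq2, and 7 with an unadjusted p under 0.05). Over all genes 4.79% passed in edgeR and 19.0% had an unadjusted p under 0.05, and DESeq2 called 1072 of 14235. The counts of these receptors and of the coregulators below are near those shares and are not results about the lists. Nr6a1, an orphan receptor, came closest (log2 fold change 0.42 ± 0.12, adjusted p = 0.0560), followed by Rora, an activator within the clock (0.25 ± 0.08, adjusted p = 0.0828). In DESeq2 these were the 2 that passed (adjusted p = 0.0225 and 0.0414). None of 17 coregulators passed in edgeR (Crebbp alone in DESeq2; 3 with an unadjusted p under 0.05), and the closest were the acetyltransferase gene Crebbp (0.22 ± 0.06, adjusted p = 0.0520) and Tbl1x, a subunit of a corepressor complex (0.21 ± 0.07, adjusted p = 0.0998).

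Receptors were also compared with their targets from library to library within the groups. Over 90 relations of a receptor with a tested gene on its own list, group means removed, 2 passed for Pearson's r after adjustment, those of Ppara with Cpt1a and Creb3l3, and Ppara's libraries fall into the clusters described above. Nr1i3 had a positive r with 14 of 15 CAR targets, of which 0 passed after adjustment. The share of all genes with a positive r was not computed, so this count has no background beside it. The targets are also not independent of each other. Cyp2c29, Cyp2c37 and Cyp2c54 deviated by -0.51, -0.78 and -0.74 in PBS replicate 5 and by -0.51, -0.74 and -0.76 in GH replicate 6. For Ugt1a1, which conjugates bilirubin, r was 0.89 (adjusted permutation p = 0.0547) and rho 0.90 (adjusted permutation p = 0.0666), with r = 0.88 without the 2 libraries farthest from the median of Nr1i3. For Cyp2c29 r was 0.80 (adjusted permutation p = 0.0585; rho 0.73, adjusted permutation p = 0.112) and r = 0.78 without those 2. Neither passed. Nr1h4 and Slc10a1 had r = 0.92 (adjusted permutation p = 0.0789; rho 0.57, adjusted permutation p = 0.339), which fell to 0.38 without GH replicate 6 and PBS replicate 5 and so rests on them. Ugt1a1 shares exons with other Ugt1a genes. These 3 pairs were chosen after their values were seen.

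Among all genes tested, those whose deviations over the 12 libraries were most like the 3 receptors with the smallest p were Pdzrn3 (r = 0.94 after removing group means), Entpd8 (0.93) and Ank (0.93) for Nr1h4. For Nr0b2 they were Dhx16 (0.94), Marveld1 (0.92) and Mgat4b (0.91), and for Nr1h3 they were Scd2 (0.94), Scarna13 (0.93) and Naa10 (0.91). With the group means kept, r was 0.66, 0.44 and 0.95 for the genes like Nr1h4, 0.71, 0.95 and 0.62 for those like Nr0b2 and 0.62, 0.83 and 0.85 for those like Nr1h3. They are the highest of 14235 values and describe these 12 libraries only.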

How the data were processed

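The data are 1 table of exonic counts by gene over 12 libraries, deposited by the authors unnormalized. Per the labels' protocols, libraries were stranded, ribosomal RNA-depleted and sequenced from both ends. The submitters' processing notes name STAR 2.4.0i and mm10. Program, annotation, strand setting and handling of multiple hits in the assignment of reads to genes were not given in the sources used here. Gene spans and exon lengths came from GENCODE M21.

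The analysis used edgeR 4.0.16 under R 4.3.3: filterByExpr (minimum count 10), TMM scaling, a robust quasi-likelihood fit of group alone on all 12 libraries, a two-sided F test and Benjamini-Hochberg adjustment over 14235 genes (threshold 0.05). An adjusted p is from this fit unless another test is named. SE was derived from F as the size of the log2 change over its square root, and 95% intervals use the denominator degrees of freedom of the F test and are not adjusted. CPM are TMM-scaled, and correlations used log2 CPM (prior count 2) with 100000 permutations within groups, or all 576 arrangements for 8 libraries. DESeq2 1.42.0, other scalings, no filter, a replicate block and left-out libraries were alternatives. The edgeR script was tested on simulated data. Members had 136 to 8279 counts per library. No library was a copy of another (chi-square per degree of freedom 8.95 or more within groups). Same-numbered libraries of the groups deviated together (r over 0.1) in 2 of 6 pairs, so the numbers were not taken as pairs.

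The members, gene lists and tests were chosen with earlier results of these data known. Named genes were the 9 members and, from each other list, the genes that passed (up to 6 by p, or the 2 smallest p if fewer than 2 passed). The 3 most alike genes for each of the 3 members with the smallest p were also named. Genes outside this rule were chosen after their values were seen, namely Creb3l3, Cpt1a, Dbp, Tef, Npas2, Bhlhe41, Cry2, Hnf4a, Ugt1a1, Greb1, Pgr, Vnn1, Cyp4a32, Cyp3a11, Cyp2b10, Glul, Cyp2e1, Rhbg, Oat and the called markers.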

Additional observations from a re-analysis of the deposited data

Results flagged for a closer look

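In 18 sets of 6 values (9 receptors in 2 groups), the most extreme library was compared with its nearest neighbour relative to the whole range, a comparison that chance passes in about 1 of 20 sets. It passed in 2. Nr1h3 stood at 96.0 CPM in PBS replicate 5, with the next library at 79.6. Nr1h4 stood at 50.6 CPM in GH replicate 6, with the next at 68.9. These are the 2 libraries farthest from their group means over all genes.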

How the results depend on the processing

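None of the 9 receptors was called higher in the libraries labelled GH in any of 19 alternatives. Nr1h4 was called lower in 2: its log2 fold change was -0.35 without GH replicate 6 and PBS replicate 5 (1 receptor called) and ran from -0.43 (without PBS replicate 5; 1 called) to -0.27 with 1 library left out (0 to 1 called). Nr1i3 changed sign, at 0.054 with the replicate block, 0.43 without PBS replicates 1 and 2 and GH replicates 5 and 6 (chosen after seeing the data) and -0.16 to 0.15 with 1 library left out. Nr5a2 ran from -0.069 to 0.022 with 1 left out. Over all genes 682 calls became 1072 in DESeq2, 391 with the replicate block and 434 (without GH replicate 2; 447 without GH replicate 1) to 854 (without PBS replicate 5) with 1 left out. Calls were 47.4% higher genes, or 24.3% with scaling by library totals, which moved the median of all genes by -0.06. DESeq2 called 2 other nuclear receptors, 1 coregulator and 2 LRH-1 targets, and library totals gave 2 LRH-1 targets. Without the filter 1 other receptor and 0 targets each of LXR, FXR, LRH-1 and the oestrogen receptor were called. With the replicate block the calls were 1 for PXR targets, 2 for CAR targets and 0 for LXR, FXR, LRH-1 and oestrogen receptor targets; the numbers did not pair the libraries (r from -0.30 to 0.35), and 1 of 6 PBS libraries was most like the GH library of its own number. Without GH replicate 6 and PBS replicate 5 the calls were 2 other receptors, 1 coregulator and 0 LXR and LRH-1 targets. Without the 4 libraries of high Dbp they were 1 other receptor, 1 coregulator, 5 PPARA, 3 CAR and 2 LRH-1 targets and 2 clock genes (Tef and Cry2). Among those 5 PPARA targets Creb3l3 was higher in the libraries labelled GH (log2 fold change 0.42, adjusted p = 0.00972). Acaa1b, Ehhadh, Acsl1 and Cyp4a32 were lower. The 4 libraries left out stood out for high Ppara, Dbp and Tef, and they also hold the highest Cry2 values. Adjusted p for Tef and Cry2 in this fit therefore cannot be taken at face value. The same limit holds for Creb3l3, which was related to Ppara across libraries. With 1 library left out the ranges were 0 to 1 for other receptors, 0 to 2 for coregulators, 3 to 9 for PPARA, 0 to 5 for PXR and 3 to 9 for CAR targets, 0 to 1 for LXR, FXR and oestrogen receptor targets and 0 to 2 for LRH-1 targets. Causes were not tested. With 6 libraries a group, the intervals of Ppara, Nr1i3, Nr0b2 and Esr1 are the widest of the 9.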
